A study of Rattus with 9 samples.

Results

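The genes described here are the 8 rat genes of the MHC class II antigen presentation pathway that are listed by name: RT1-Da and RT1-Db1, the alpha and beta chains of the rat class II molecule RT1-D; RT1-Ba and RT1-Bb, the chains of RT1-B; Cd74, the invariant chain; RT1-DMa and RT1-DMb, the chains of the peptide-exchange molecule RT1-DM; and Ciita, the class II transactivator. They were chosen by symbol, with earlier results of these data known, and all 8 were among the 23836 gene symbols of the single-cell RNA sequencing matrices. The samples were bile ducts of rats. The 3 sham samples are labelled only as sham, with no day. The 3 ctrl samples came from rats after liver transplantation (LT) with ischemic injury, taken at day 1, day 3 and day 7. The 3 treat samples came from the same model and days, in which the arterial flow was raised by tying off the splenic and gastric-duodenal arteries. The methods of the paper give Sprague-Dawley rats of both sexes with an age range in weeks, and warm ischemia in every LT group. The paper credits its rat single-cell data to earlier work of its authors. These methods may therefore not describe the samples used here. Strain, sex and age are not given per sample, and the ligation itself is described only in the series' design.

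MHC class II molecules are heterodimers of an alpha and a beta chain that show peptides from endocytosed proteins to CD4+ T cells. The invariant chain binds the new dimer and guides it to endosomes, where proteases trim the invariant chain and the DM molecule exchanges its remnant for a peptide. The genes share a promoter module that is switched on by the transactivator CIITA, which B cells, dendritic cells and macrophages express on their own and which many other cells, bile duct epithelium included, can gain when exposed to interferon gamma.

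The 20 libraries held between 14398295 and 109245177 unique molecular identifiers (UMIs) each, and 139322 barcodes passed the cell filters, 2279 to 31654 per sample. Of these barcodes 136836 were distinct, and no pair of libraries shared more than 51 of them. Median depth was between 2719 and 5173 UMIs per cell in the 9 samples. Each sham sample was 1 library, the treat day 3 sample 2 libraries and every other sample 3, and the libraries of a sample were summed. The labels do not say whether libraries or samples came from separate rats, so the p-values measure the spread between these samples, which may be technical in part. Several ctrl libraries stood apart. In ctrl day 3 most barcodes of libraries 2 and 3 exceeded the limit on hemoglobin UMIs, 2500 of 2923 and 3966 of 4312, and 391 and 316 cells were kept beside 6831 of library 1. Ctrl day 7 library 2 held 128 epithelial cells, against 1404 and 1408 in libraries 1 and 3. Ctrl day 1 library 2 had Cd74 at 179.5 UMIs per 1000000 UMIs (CPM) in immune cells, against 2463 and 1779.9 in the other libraries of that sample. The main results that rest on these libraries are given with and without them.

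Cells were clustered without the 8 genes and without the other genes of the pathway, and the clusters were grouped by marker genes into an immune, an epithelial, an endothelial and a stromal compartment. The compartments carried their defining markers. Epcam, an epithelial adhesion molecule, was at 1696 to 3082 CPM in the epithelial compartment and at no more than 47.3 CPM in the others. Ptprc, the pan-leukocyte antigen CD45, was at 301 to 557 CPM in the immune compartment and at no more than 16.9 CPM in the others. The endothelial cadherin gene Cdh5 was at 390.2 to 797 CPM in the endothelial compartment and under 5 CPM elsewhere. The collagen gene Col1a1 was at 1561 to 17538 CPM in the stromal compartment and at no more than 171 CPM in the others.

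Of the 8 genes, 5 gave many UMIs. Cd74 gave 2208272 UMIs in 67819 cells, RT1-Da 1857555 in 61266, RT1-Db1 1523830 in 58610, RT1-Ba 553330 in 47186 and RT1-Bb 407978 in 38412. Ciita was rare, with 4980 UMIs in 4069 cells. The RT1-DM chains were close to the floor of these libraries: RT1-DMb gave 237 UMIs in 236 cells and RT1-DMa 62 UMIs in 62 cells, with none in 1 sample. RT1-DMa reached 0.529 CPM at most in the immune compartment and RT1-DMb 1.03 CPM. RT1-DMa was too low to be tested in the compartments, and RT1-DMb, tested in some of the fits on few UMIs, passed in none of the main ones. The compartment comparisons therefore cover 5 to 7 of the 8 genes. The libraries were primed at the 3′ end, and UMIs were not scaled by gene length, so levels are compared between cells and samples and not between genes.

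**Figure D1:**
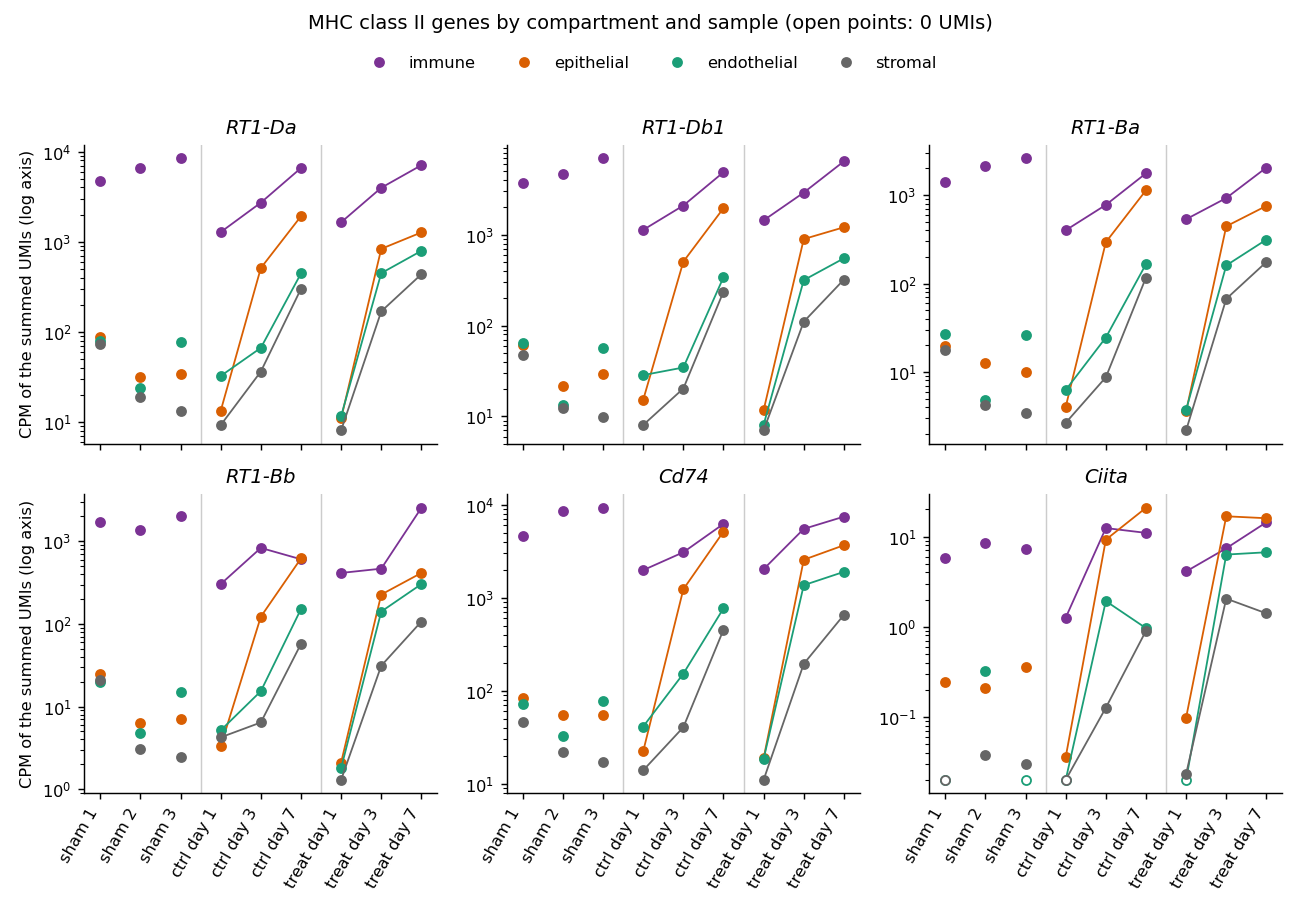
CPM (log axis) of 6 MHC class II genes in the 4 compartments, 1 point per sample and compartment, with lines joining days 1, 3 and 7 of the ctrl and of the treat samples; open points mark sums with 0 UMIs. The immune compartment lies above the others in the sham samples, and the epithelial points are higher at day 7 than at day 1, for Cd74 from 22.4 to 5133 CPM in ctrl.

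The immune compartment held most of the class II RNA. It contributed between 81.1% and 97.9% of the UMIs of the 8 genes in every sample, whereas its share of all UMIs was between 10.4% and 68.2%. The epithelial compartment contributed 3.49%, 0.984% and 1.33% in the 3 sham samples, 2.66%, 7.11% and 10.5% in ctrl at days 1, 3 and 7, and 0.705%, 15.6% and 9.87% in treat. Over all 9 samples, with the sample as a block, 6 of 6 genes tested passed edgeR's quasi-likelihood test with Benjamini-Hochberg adjustment for immune against epithelial cells (73.2% of all genes passed), 6 of 6 for immune against endothelial cells (62.7% of all genes) and 6 of 6 for immune against stromal cells (72.2% of all genes), each higher in immune cells. The shares of all genes that passed were high, so the counts alone do not set these genes apart. The size of the difference against epithelium was 5.50 (SE 0.65) for RT1-Da on the log2 scale, 4.91 (SE 0.74) for Cd74 and 2.39 (SE 0.60) for Ciita. Against stroma it was 7.12 (SE 0.67) for RT1-Da, 7.32 (SE 0.76) for Cd74 and 5.72 (SE 0.73) for Ciita.

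Outside the immune compartment epithelium lay above stroma, and endothelium could not be placed firmly between them. All 6 genes were higher in epithelial than in stromal cells, with log2 differences from 1.62 to 3.33 and adjusted p (edgeR's quasi-likelihood test) between 1.02e-04 and 0.0107, a contrast in which 65.6% of all genes passed. The difference of 3.33 and the lowest adjusted p were those of Ciita, and the other genes differed by 1.62 to 2.41. Ciita rested on few cells, with a UMI in at most 22 stromal and at most 39 endothelial cells of a sample. Between epithelial and endothelial cells 1 of 6 passed (62.7% of all genes), Ciita with a log2 difference of 1.60 (SE 0.69, adjusted p = 0.045 by edgeR's quasi-likelihood test), and the other 5 differed by 0.80 to 1.31. That single call was lost without sham 1, without ctrl day 3, without ctrl day 7 or without only library 2 of ctrl day 7, with 0 genes called each time, and it grew to 3 genes without sham 3 and to 2 without ctrl day 1. Between endothelial and stromal cells 0 of 6 passed edgeR's quasi-likelihood test (53.4% of all genes did), with log2 differences of 0.81 to 1.73, 2 genes at an unadjusted p under 0.05 and 1 gene called by DESeq2.

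Cell classes were named from marker lists and are written as X-like. Within the immune compartment RT1-Da, RT1-Db1, RT1-Ba, RT1-Bb and Cd74 had their highest medians in the professional antigen-presenting cells, the dendritic-like, B-like and macrophage-like classes. Ciita had a higher median in monocyte-like than in macrophage-like cells, 12.5 against 6.63 CPM, with overlapping ranges. The RT1-DM chains were too close to the floor to be placed. RT1-Da had its highest median in dendritic-like cells, at 13339 CPM (5487 to 18131 over 8 samples with at least 20 such cells). B-like cells followed with 11500 CPM (6830.4 to 13461 in 8 samples), then macrophage-like cells with 7445 (2425 to 14562 in 9), plasmacytoid dendritic-like cells with 3993 (1432 to 5329 in 8) and monocyte-like cells with 2430.2 (459 to 9809 in 9). Neutrophil-like cells, the next common class, were at 162 CPM (20.9 to 463 in 8 samples). The only neighbouring classes whose ranges did not overlap were plasma-like cells, seen in 2 samples at 587 and 692 CPM, and neutrophil-like cells. The other neighbours could not be put in order beyond the spread of the samples. T-like cells had a median of 100.2 CPM and NK-like cells of 107, and in epithelial and stromal classes the median hid a wide range, 5.30 to 1248 CPM for biliary epithelial-like cells and 7.20 to 463 for fibroblast-like cells.

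**Figure D2:**
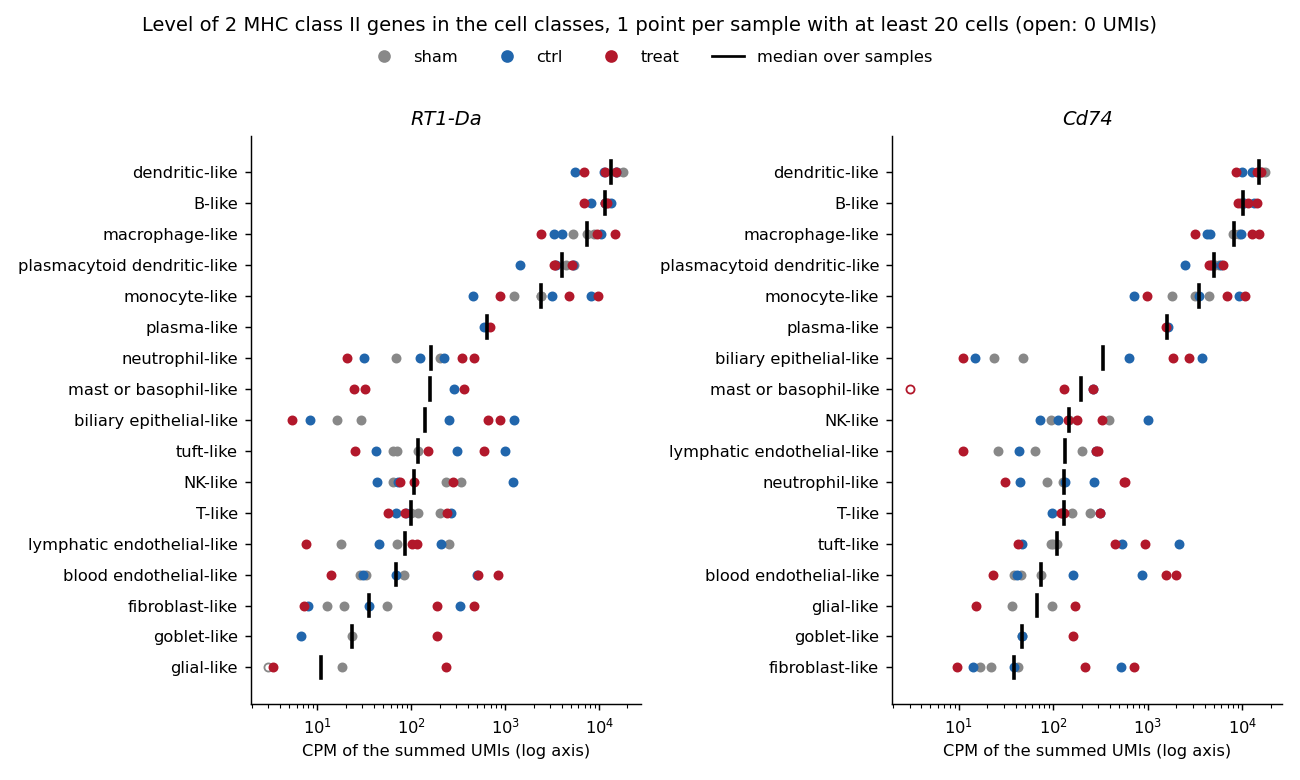
CPM (log axis) of RT1-Da and Cd74 in each cell class, 1 point per sample with at least 20 cells of that class, coloured by group, with a bar at the median and open points for sums with 0 UMIs. Dendritic-like and B-like cells head both orders with medians of 13339 and 11500 CPM for RT1-Da, and biliary epithelial-like, tuft-like, blood endothelial-like and fibroblast-like cells each span more than a decade.

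The classes were not uniform inside. Among dendritic-like cells, the cluster led by Ccl17 and Wdfy4 had RT1-Da between 10654 and 18351 CPM in the 7 samples that held it, whereas the cluster led by Il7r and Cacnb3 had 2023 to 8504 CPM in its 7. Among macrophage-like cells, the cluster led by C1qa and C1qc had 4485 to 15306 CPM, and the cluster led by Gpnmb and Arg1, which had at least 20 cells in 4 samples and gave 1568 of its 1996 cells in ctrl day 7, had 423 to 2943 CPM. Of the cells of the latter cluster, 75.6% came from ctrl day 7 library 2, one of the libraries that stood apart. These cluster levels are descriptions. When the cluster led by C1qa and C1qc was fitted alone for treat against sham, RT1-Da, RT1-Db1, RT1-Ba, RT1-Bb and Cd74 did not pass edgeR's quasi-likelihood test (14.5% of all genes did). Ciita was at 2.78, 4.69 and 3.34 CPM in sham and at 8.85, 11.9 and 26.4 in treat. It passed in that fit, but it was too low to be tested for ctrl against sham with the same sham samples. It thus entered only through the treat samples, where it was high, and it is not counted. Ciita was named after its values were seen, and alternatives were not run in clusters.

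In the epithelial compartment RT1-Da, RT1-Db1, RT1-Ba, RT1-Bb, Cd74 and Ciita were low in the sham samples and at day 1 and high at days 3 and 7. The RT1-DM chains were close to the floor here as in the other compartments, so no change or lack of change is read from them. RT1-Da was at 86.7, 31.3 and 33.6 CPM in the 3 sham samples, at 13.3, 510.4 and 1918 CPM in ctrl at days 1, 3 and 7, and at 10.9, 833 and 1269 CPM in treat at days 1, 3 and 7. Cd74, which encodes the chaperone of the dimer, was at 82.8, 54.8 and 55.2 CPM in sham, at 22.4, 1233 and 5133 CPM in ctrl, and at 18.8, 2559 and 3664 CPM in treat. In both arms the day 1 sample lay below all 3 sham samples and the day 3 and day 7 samples lay above them, for each of these genes.

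The other chains of RT1-D and RT1-B were also below all sham samples at day 1 and above them at days 3 and 7. RT1-Db1 was at 61.2, 21.8 and 29.2 CPM in sham, at 15.3, 507 and 1965 in ctrl and at 11.7, 898 and 1211 in treat. RT1-Ba was at 19.4, 12.5 and 10.0 CPM in sham, at 4.03, 293 and 1134 in ctrl and at 3.58, 444 and 755 in treat. RT1-Bb was at 25.01, 6.40 and 7.10 CPM in sham, at 3.31, 122 and 620.4 in ctrl and at 2.11, 227 and 414 in treat. The RT1-D and RT1-B chains thus moved in the same samples. Ciita, the regulator, gave 1, 3 and 7 UMIs in the sham epithelium, 2, 76 and 465 UMIs in ctrl at days 1, 3 and 7, and 4, 412 and 505 UMIs in treat. In CPM this was 0.206 to 0.357 in sham, 0.0358, 9.22 and 20.8 in ctrl, and 0.0980, 16.8 and 15.95 in treat.

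Because each arm had 1 sample per day, the groups of 3 mix the days, and the mean Cd74 level in epithelium was 64.3 ± 16.03 CPM in sham (SD, n = 3), 2129 ± 2671 in ctrl (SD, n = 3) and 2080.4 ± 1869 in treat (SD, n = 3). For ctrl against sham, 0 of 5 class II genes passed edgeR's quasi-likelihood test in epithelium, where 1.86% of all genes passed; the log2 fold changes were 4.27 to 5.34, all 5 had an unadjusted p under 0.05, and DESeq2 called 5. Cd74 changed by 5.27 (SE 1.53, adjusted p = 0.0995 by edgeR's quasi-likelihood test), RT1-Da by 4.27 (SE 1.41, adjusted p = 0.13) and RT1-Ba by 5.34 (SE 1.58, adjusted p = 0.10). The result turned on the day 1 sample: without ctrl day 1, all 5 genes passed, Cd74 with a log2 fold change of 5.84 (adjusted p = 0.024 by edgeR's quasi-likelihood test). Throughout, the share of all genes that passed is not given for DESeq2 or for fits without a sample or library. Those counts alone do not set these genes apart. For treat against sham, which uses the same sham samples, 0 of 5 genes passed edgeR's quasi-likelihood test (0.00757% of all genes passed), with 5 at an unadjusted p under 0.05 and 3 called by DESeq2. Cd74 changed by 5.20 (SE 1.43, adjusted p = 0.19 by edgeR's quasi-likelihood test). Without treat day 1 these 5 genes passed, with Cd74 at 5.79 (adjusted p = 0.0029 by edgeR's quasi-likelihood test). Ciita passed there too, but it entered that fit only through the samples where it was high. It had a UMI in 1, 3 and 5 epithelial cells in sham and in 335 and 381 in treat at days 3 and 7, and it is not counted.

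The slope over days, fitted on the 3 ctrl and 3 treat samples with the arm as a term, was between 0.66 and 0.88 log2 units per day for the 6 genes in epithelium. None of the 6 passed edgeR's quasi-likelihood test, where 2.94% of all genes did, with 1 gene at an unadjusted p under 0.05 and 3 called by DESeq2. RT1-Da had a slope of 0.80 (SE 0.35, adjusted p = 0.18 by edgeR's quasi-likelihood test), Cd74 of 0.84 (SE 0.40, adjusted p = 0.21) and Ciita of 0.66 (SE 0.39, adjusted p = 0.30). The levels did not lie on a straight line over the days, since the step from day 1 to day 3 exceeded that from day 3 to day 7 on the log scale in both arms. Without treat day 3, 2 genes passed. Without ctrl day 7 library 2 the slope was 0.81 for RT1-Da and 0.85 for Cd74, without ctrl day 1 library 2 it was 0.78 and 0.83, and 0 genes passed in either case.

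By library, ctrl day 7 was split. Cd74 in epithelium was at 5253, 122 and 5804 CPM in ctrl day 7 libraries 1, 2 and 3, at 1304, 116 and 529.7 CPM in those of ctrl day 3, and at 45.6, 3.199 and 14.3 CPM in those of ctrl day 1. The treat libraries lay closer together, at 26.8, 15.2 and 14.6 CPM at day 1, 2624 and 2492 at day 3, and 4120.0, 2053 and 4461 at day 7. Ctrl day 3 libraries 2 and 3 rested on 22 and 37 epithelial cells. Leaving out libraries was chosen after the values were seen. The log2 fold change of Cd74 of ctrl against sham in epithelium was 5.33 without ctrl day 7 library 2, 5.26 without ctrl day 1 library 2 and 5.28 without ctrl day 3 libraries 2 and 3, and none of these passed.

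**Figure D3:**
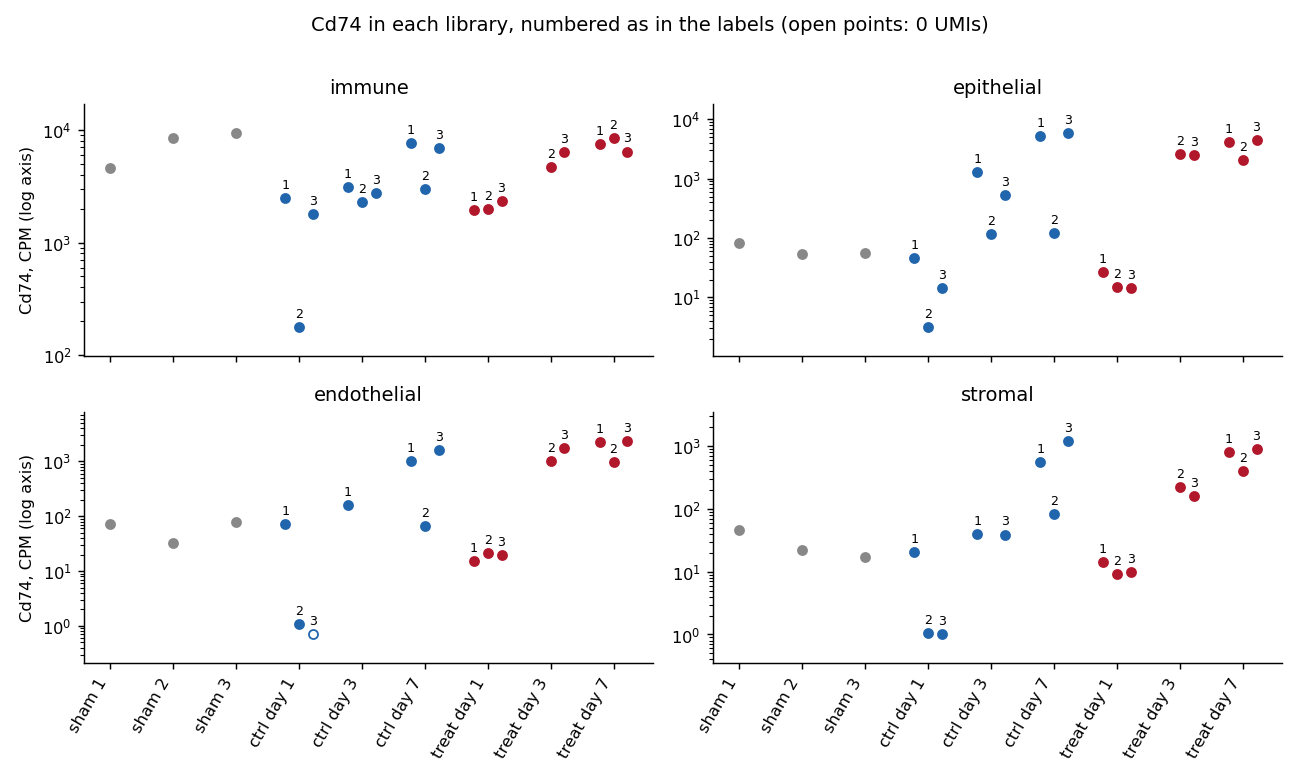
CPM (log axis) of Cd74 in each library with at least 20 cells of the compartment, numbered as in the labels and coloured by group, with open points for 0 UMIs. In epithelium ctrl day 7 library 2 sits at 122 CPM beside 5253 and 5804 in the other libraries of that sample, and ctrl day 1 library 2 is the lowest immune point at 179.5 CPM.

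The share of epithelial cells with a Cd74 UMI gave the same picture. It was 18.3%, 11.9% and 15.4% in sham, 9.48%, 56.4% and 92.52% in ctrl at days 1, 3 and 7, and 10.2%, 88.6% and 88.3% in treat, at median depths of 2925 to 8938 UMIs per epithelial cell. After each cell was thinned to 1000 UMIs the shares were 7.26%, 4.21% and 4.69% in sham, 2.22%, 36.8% and 86.5% in ctrl, and 1.89%, 77.0% and 78.2% in treat, with 39 to 423 shallower cells left out per sample. T-like cells, which express little class II when resting, had thinned shares of 13.7%, 9.05% and 7.92% in sham, 6.27%, 6.76% and 20.5% in ctrl, and 6.26%, 10.8% and 22.2% in treat, at median depths of 2281 to 5361 UMIs. The epithelial shares at day 1 and in sham thus lay under those of T-like cells, so no expression is read from them, and those at days 3 and 7 lay above them.

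RNA free in the cell suspension was estimated from barcodes with at most 100 UMIs and from markers of other compartments. It could account for 70.9% to 153% of the Cd74 UMIs of epithelium in the sham and day 1 samples, with the lowest share in ctrl day 1, and for 4.49% and 5.79% in ctrl at days 3 and 7 and 4.97% and 6.24% in treat. For RT1-Da these shares were 97.2% to 302% in the sham and day 1 samples and 12.2% to 20.3% at days 3 and 7. For Ciita they were 1.52% to 3.16% at days 3 and 7.

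Markers of immune cells were also present in the epithelial compartment at a low level. At days 3 and 7 the Cd74 level of epithelium was 40.0% and 82.6% of that of the immune compartment in ctrl, and 46.6% and 49.3% in treat. Ptprc, measured in the same sums, was at 1.10% and 3.54% of its immune level in ctrl and 1.21% and 2.26% in treat, and the macrophage complement gene C1qa was at 1.24% and 2.30% in ctrl and 0.722% and 1.503% in treat. Ciita was at 74.3% and 189.7% of its immune level in ctrl and at 226% and 111% in treat. In CPM, epithelial Ptprc was at 4.90 to 13.4 in sham, at 1.56, 4.73 and 15.4 in ctrl and at 3.26, 5.13 and 11.5 in treat, and C1qa at 7.71 to 60.9 in sham, at 7.75, 22.3 and 36.8 in ctrl and at 5.34, 6.47 and 24.9 in treat, both in the order of days. Of the 10 macrophage markers, 8 to 10 had a UMI in the epithelial sums, at a summed 27.8 to 211 CPM in sham, 29.96 to 118 in ctrl and 23.6 to 85.3 in treat. Of the 10 B-cell markers, 4 to 10 had a UMI, at 2.91 to 4.19 CPM in sham, 5.58 to 16.9 in ctrl and 4.11 to 13.9 in treat. Of the 14 dendritic markers, 4 to 13 had a UMI, at 25.01 to 38.0 CPM in sham, 19.9 to 28.9 in ctrl and 24.4 to 32.4 in treat. The 10 T-cell markers, of which 8 to 10 had a UMI, were at 13.2 to 13.9 CPM in sham, at 5.52, 12.4 and 56.8 in ctrl and at 7.69, 22.3 and 33.1 in treat, also in the order of days, and the part of these cells in the result was not tested.

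Higher levels at days 3 and 7 than at day 1 were seen in several clusters. In the cluster led by Lgals2 and Scgb1c1, which held 8439 cells, Cd74 was at 68.2, 57.0 and 53.0 CPM in sham, at 48.6, 2195 and 6041 in ctrl, and at 18.1, 2838 and 4323 in treat. In another large cluster of 5386 cells it was at 40.4 to 87.6 CPM in sham, at 35.2, 985 and 4563 in ctrl, and at 31.1, 3072 and 3070.4 in treat. Both clusters held markers of biliary epithelial cells and of other epithelial classes, so neither received a class name. A cluster of 3810 cells led by Ins2, Ins1 and Gast, which stayed outside the compartments, had RT1-Da at 35.9 to 126 CPM in sham, at 50.8, 165 and 1712 in ctrl, and at 16.8, 936 and 1211 in treat. In each of these clusters the day 3 and day 7 samples lay above the day 1 sample of their arm, but no slope was called when each was fitted alone by edgeR's quasi-likelihood test. The numbers passing were 0 of 6, 0 of 6 and 0 of 5 (0.232%, 0.0381% and 0% of all genes), with 1, 4 and 5 at an unadjusted p under 0.05, and DESeq2 was not run.

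In the class of biliary epithelial-like cells, RT1-Da was at 8.28, 249 and 1248 CPM in ctrl at days 1, 3 and 7 and at 5.30, 649 and 885 in treat, beside 16.1 and 29.1 in the sham samples with enough cells. The slopes were 0.78 to 0.91 per day, and 0 of 6 genes passed edgeR's quasi-likelihood test although 23.4% of all genes did, with all 6 at an unadjusted p under 0.05. In blood endothelial-like cells the same test called 0 of 6 (0.103% of all genes; 5 at an unadjusted p under 0.05) and in fibroblast-like cells 0 of 6 (0.183% of all genes; 5 at an unadjusted p under 0.05). DESeq2 was not run in these 3 classes.

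Tuft-like cells, named after chemosensory epithelial cells, carried the clearest slope. RT1-Da in them was at 118, 64.4 and 69.7 CPM in sham, at 42.4, 303 and 1002 in ctrl, and at 25.1, 151 and 589 in treat. Cd74 was at 98.5, 108 and 93.6 CPM in sham, at 47.1, 528 and 2127 in ctrl, and at 42.2, 446 and 934 in treat. The day 1 samples were the lowest of the 9 and the day 7 samples the highest, and the sums rested on 88 to 794 cells. Tuft-like cells were 473 of 912, 794 of 2379 and 687 of 2450 epithelial cells in sham. In ctrl at days 1, 3 and 7 they were 641 of 4409, 88 of 792 and 99 of 2940. In treat they were 444 of 3080, 96 of 2756 and 551 of 4935. The part of this shift in the changes of the epithelial compartment was not tested. All 5 genes tested had a slope that passed edgeR's quasi-likelihood test, where 0.645% of all genes did, at 0.63 to 0.80 log2 units per day with adjusted p between 9.1e-06 and 0.0011. All 5 also passed when any of ctrl day 1, day 3 and day 7 or treat day 1 and day 3 was left out, and 4 passed without treat day 7. Free RNA could account for 66.5% to 93.3% of tuft Cd74 in the sham and day 1 samples, for 20.5% and 18.5% in ctrl at days 3 and 7 and for 25.8% and 35.9% in treat. The T-cell markers in the tuft sums, of which 4 to 7 of 10 had a UMI, were at 14.3 to 21.4 CPM in sham, at 6.06, 19.4 and 107 in ctrl and at 13.7, 41.2 and 73.0 in treat, and their part was not tested. Neither ctrl nor treat could be told from sham in tuft-like cells: 0 of 5 genes passed edgeR's quasi-likelihood test in each (0% of all genes passed in each), with 4 and 5 genes at an unadjusted p under 0.05; DESeq2 was not run for these comparisons in single classes.

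Endothelial cells, which form the vessel lining that meets recipient blood, also had higher levels at days 3 and 7 than at day 1. Cd74 was at 71.8, 32.9 and 77.9 CPM in sham, at 41.3, 153 and 769 in ctrl at days 1, 3 and 7, and at 18.5, 1364 and 1896 in treat. RT1-Da was at 80.0, 23.9 and 77.9 CPM in sham, at 32.3, 66.3 and 444 in ctrl, and at 11.6, 448 and 791 in treat. The treat day 3 sample lay well above the ctrl day 3 sample for both genes, and ctrl day 3 overlapped the sham samples for RT1-Da. Ciita gave 0, 1 and 0 UMIs in the sham endothelium, where 3 UMIs would be 0.969 to 1.75 CPM, 0, 4 and 7 UMIs in ctrl, and 0, 37 and 52 UMIs in treat.

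For ctrl against sham, 0 of 5 genes passed edgeR's quasi-likelihood test in endothelium (2.51% of all genes did), with log2 fold changes of 1.70 to 2.50, 1 gene at an unadjusted p under 0.05 and 0 called by DESeq2; Cd74 changed by 2.50 (SE 0.87, adjusted p = 0.15). For treat against sham it called 0 of 5 (0% of all genes passed), with 5 genes at an unadjusted p under 0.05 and 0 called by DESeq2; Cd74 changed by 4.32 (SE 1.28, adjusted p = 0.24). Without treat day 1 these 5 genes passed, with Cd74 at 4.90 (adjusted p = 0.0039 by edgeR's quasi-likelihood test). Ciita passed there too, but it entered that fit only through the samples where it was high, with 0, 1 and 0 UMIs in sham and 37 and 52 in treat at days 3 and 7, and it is not counted. The slope over days passed for 0 of 6 genes (0.0453% of all genes), with 5 at an unadjusted p under 0.05, 0 called by DESeq2 and values of 0.37 to 0.78 per day, and without treat day 3 it passed for 5. By library, Cd74 in ctrl day 7 endothelium was at 1018, 67.1 and 1591 CPM, and without library 2 its fold change of ctrl against sham was 3.01 (adjusted p = 0.16). RT1-Da in ctrl day 1 endothelium was at 57.0, 1.07 and 1.45 CPM in libraries 1, 2 and 3. Free RNA could account for 43.8% to 121% of endothelial Cd74 in the sham and day 1 samples, 26.1% and 36.6% in ctrl at days 3 and 7, and 9.15% and 17.05% in treat. Ptprc in the endothelial sums was at 2.19 to 3.23 CPM in sham, at 1.90, 5.76 and 16.9 in ctrl and at 3.94, 6.65 and 15.7 in treat. The 10 T-cell markers, of which 4 to 10 had a UMI, were at 17.1 to 22.3 CPM in sham, at 19.3, 24.0 and 64.1 in ctrl and at 18.7, 30.7 and 44.1 in treat, and the 10 macrophage markers, of which 6 to 10 had a UMI, were at 75.7 to 218 in sham, 72.5 to 141 in ctrl and 58.4 to 105 in treat. Ptprc and the T-cell markers thus followed the order of days, and their part was not tested.

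Stromal cells, mostly fibroblasts, had the lowest levels. Cd74 was at 46.7, 21.9 and 17.4 CPM in sham, at 14.0, 40.6 and 452 in ctrl at days 1, 3 and 7, and at 11.1, 195 and 654 in treat. RT1-Da was at 73.2, 19.1 and 13.1 CPM in sham, at 9.20, 36.2 and 300.0 in ctrl, and at 8.05, 168 and 435 in treat. In both arms day 7 was the highest of all samples, and ctrl day 3 lay within the sham range. Free RNA could account for 149% of stromal Cd74 in ctrl day 3 and 66.5% in treat day 3, and for 41.6% and 43.1% at day 7, so the stromal level before day 7 was not told from background in ctrl. Immune markers in the stromal sums followed the same order of days: Ptprc was at 1.39 to 1.76 CPM in sham, at 0.973, 6.81 and 11.1 in ctrl and at 1.57, 5.58 and 12.0 in treat, and C1qa was at 5.69 to 55.5 CPM in sham, at 8.49, 17.9 and 26.1 in ctrl and at 4.29, 7.06 and 27.9 in treat. The 10 T-cell markers, of which 4 to 10 had a UMI, were at 1.597 to 3.53 CPM in sham, at 0.973, 7.06 and 21.4 in ctrl and at 1.88, 11.5 and 28.6 in treat, and the part of these cells was not tested.

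For ctrl against sham, 0 of 5 genes passed edgeR's quasi-likelihood test in stroma (0.439% of all genes passed), with 1 at an unadjusted p under 0.05 and 0 called by DESeq2; Cd74 changed by 2.74 (SE 1.16, adjusted p = 0.31). For treat against sham it called 0 of 5 (0% of all genes), with 3 at an unadjusted p under 0.05 and 0 called by DESeq2; Cd74 changed by 3.55 (SE 1.20, adjusted p = 0.32), and 3 genes passed without treat day 1, Cd74 with 4.13 (adjusted p = 0.035). The slope over days was 0.59 to 0.85 per day and passed edgeR's quasi-likelihood test for 0 of 6 genes (0.0415% of all genes), with 5 at an unadjusted p under 0.05 and 5 called by DESeq2. Cd74 had a slope of 0.81 (SE 0.14, adjusted p = 0.14 by edgeR's quasi-likelihood test) and RT1-Da of 0.77 (SE 0.16, adjusted p = 0.15), and without treat day 3 the other 5 genes passed beside Ciita. In that fit Ciita rested on the samples where it was high. It had a UMI in 0, 1 and 13 stromal cells of ctrl and in 2 and 15 of treat at days 1 and 7, and it is not counted. By library, Cd74 in ctrl day 7 stroma was at 561, 83.3 and 1200.3 CPM, and without library 2 its slope was 0.88 (adjusted p = 0.081).

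In the immune compartment RT1-Da, RT1-Db1, RT1-Ba and Cd74 were lower at day 1 than in sham and within the sham range at day 7. RT1-Da was at 4699, 6515 and 8429 CPM in sham, at 1279, 2714 and 6581 in ctrl at days 1, 3 and 7, and at 1642, 3972 and 7072 in treat. Cd74 was at 4556, 8482 and 9247 CPM in sham, at 1978, 3079 and 6212 in ctrl, and at 2027, 5489 and 7433 in treat. The samples of days 1 and 3 lay below all sham samples for RT1-Da, and the day 7 samples lay within the sham range for both genes. RT1-Bb did not follow: it was at 1725, 1363 and 2026 CPM in sham, at 304, 832 and 606 in ctrl and at 414, 467 and 2541 in treat, so ctrl day 7 lay below all sham samples and treat day 7 above them. The RT1-Bb to RT1-Ba ratio varied by library in ctrl day 7 and treat day 3, as given further on. The RT1-Bb levels of these samples, and its fold change of ctrl against sham, rest in part on that ratio.

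The slope over days passed edgeR's quasi-likelihood test for 3 of 7 genes in immune cells, where 5.48% of all genes passed. RT1-Da rose by 0.33 log2 units per day (SE 0.06, adjusted p = 0.024), RT1-Db1 by 0.32 (SE 0.04, adjusted p = 0.015) and RT1-Ba by 0.31 (SE 0.04, adjusted p = 0.011) in edgeR's quasi-likelihood test. RT1-Bb had a slope of 0.30 (SE 0.09, adjusted p = 0.11), Cd74 of 0.25 (SE 0.07, adjusted p = 0.078), and Ciita of 0.30 (SE 0.11, adjusted p = 0.17) in the same fit. The calls needed most of the 6 samples: none remained without ctrl day 1, without ctrl day 7 or without treat day 7, and 1 remained without treat day 1. The 3 calls held without ctrl day 1 library 2, with slopes of 0.32 for RT1-Da, 0.31 for RT1-Db1 and 0.30 for RT1-Ba (adjusted p = 0.027, 0.019 and 0.014 by edgeR's quasi-likelihood test), and 3 genes also passed without ctrl day 7 library 2. The log2 fold change of Cd74 in ctrl against sham was -0.72 without ctrl day 1 library 2 (adjusted p = 0.36). The means of the groups, with days mixed, were 7428 ± 2517 CPM of Cd74 in sham, 3757 ± 2197 in ctrl and 4983 ± 2738 in treat (SD, n = 3 each). For ctrl against sham, 0 of 6 genes passed edgeR's quasi-likelihood test (0% of all genes passed), with 1 at an unadjusted p under 0.05 and 1 called by DESeq2; Cd74 changed by -0.76 (SE 0.45, adjusted p = 0.37) and RT1-Bb by -1.34 (SE 0.31, adjusted p = 0.11). For treat against sham it called 0 of 6 (0.00798% of all genes), with 0 at an unadjusted p under 0.05 and 0 called by DESeq2; Cd74 changed by -0.44 (SE 0.48, adjusted p = 0.66).

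The makeup of the immune compartment moved at the same time. The summed level of the 10 neutrophil markers was 6654, 329 and 1097 CPM in sham, 74707, 26512 and 10257 in ctrl at days 1, 3 and 7, and 53817, 4688 and 3504 in treat, with 8 to 10 of the 10 detected. The macrophage markers were at 7316 to 8028 CPM in sham, 2584 to 5472 in ctrl and 2780.3 to 4885 in treat. The 10 B-cell markers, of which 9 to 10 were detected, were at 80.0 to 116 CPM in sham, at 66.7, 99.3 and 292 in ctrl and at 119.6, 125 and 242 in treat, and B-like cells, which have high class II levels, were 105 of 6199 immune cells at ctrl day 1 and 4938 of 24761 at ctrl day 7. The 10 T-cell markers, all detected, were at 175 to 752 CPM in sham, at 169.5, 534 and 1484 in ctrl and at 294, 1289 and 1663 in treat. Both lists were in the order of days within each arm, and their part in the immune slopes was not tested. In a sum over mixed cells, fewer cells of a type and less RNA per cell cannot be told apart, so the classes were fitted on their own.

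With all cells of a sample summed, 0 of 6 genes passed edgeR's quasi-likelihood test for ctrl against sham (3.47% of all genes did; 1 at an unadjusted p under 0.05; 1 by DESeq2) and 0 of 6 for treat against sham (0.0644%; 2 at an unadjusted p under 0.05; 1 by DESeq2). Neither did any of 8 for treat against ctrl (0% of all genes; 0 at an unadjusted p under 0.05; 0 by DESeq2), nor any of 8 for the slope (0.271%; 6 at an unadjusted p under 0.05; 5 by DESeq2). Without ctrl day 1, 3 genes passed for ctrl against sham, and without treat day 1, 5 passed for treat against sham.

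Within B-like cells the genes were flat over the days, with slopes from -0.01 to 0.11 and 0 of 6 called by edgeR's quasi-likelihood test (0.242% of all genes passed; 1 gene at an unadjusted p under 0.05). Cd74 in B-like cells was at 13376, 10055 and 10465 CPM in ctrl at days 1, 3 and 7 and at 8903, 14199 and 11398 in treat, with sham at 9601 and 9709 in the 2 samples with enough cells. Dendritic-like cells had slopes of 0.11 to 0.21 (0 of 6 called; 0.1% of all genes passed; 3 at an unadjusted p under 0.05) and macrophage-like cells of 0.26 to 0.37 (0 of 6; 0.0501% of all genes; 6 at an unadjusted p under 0.05) by edgeR's quasi-likelihood test. Plasmacytoid dendritic-like cells (0 of 5; 0.14% of all genes; 2 at an unadjusted p under 0.05) and neutrophil-like cells (0 of 5; 0.0128% of all genes; 4 at an unadjusted p under 0.05) had no call either. DESeq2 was not run in these 5 classes.

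Monocyte-like cells had steeper slopes, 0.37 to 0.58 per day, and 3 of 7 genes, RT1-Da, RT1-Db1 and RT1-Ba, passed edgeR's quasi-likelihood test (3.13% of all genes passed). RT1-Da in them was at 1239, 2409.5 and 2430.2 CPM in sham, at 459, 3132 and 8195 in ctrl, and at 876, 4714 and 9809 in treat. The day 7 samples were above all others and the day 1 samples below all others. The class held different clusters at different days. The cluster led by Ccl24 and Vcan had RT1-Da between 133 and 4174 CPM and gave 848 and 2272 of its 4753 cells at day 1, whereas the cluster led by Fcnb and Lyz2 had 2367 to 11842 CPM and gave 37 and 106 of its 7568 cells at day 1. Each cluster was also fitted alone by edgeR's quasi-likelihood test, and the difference between clusters was not tested. In the cluster led by Fcnb and Lyz2, 0 of 7 genes passed (0.0738% of all genes did; 4 at an unadjusted p under 0.05; DESeq2 was not run), with slopes of 0.12 to 0.25 per day. In the cluster led by Ccl24 and Vcan 5 of 6 passed (1.86% of all genes), with slopes of 0.36 to 0.51, and in the cluster led by Mal and Gngt2 2 of 6 (0.212% of all genes), with slopes of -0.05 to 0.54. In the whole class the calls rested on single samples: none passed without ctrl day 1, ctrl day 3, ctrl day 7 or treat day 7, 1 passed without treat day 1 and 7 passed without treat day 3. Without ctrl day 7 library 2, 5 passed.

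In NK-like cells 4 of 5 genes passed edgeR's quasi-likelihood test for the slope over days (0.668% of all genes passed), RT1-Da, RT1-Db1, RT1-Ba and RT1-Bb, with values of 0.47 to 0.62 per day and adjusted p from 0.0035 to 0.017. RT1-Da in them was at 232, 64.5 and 337 CPM in sham, at 43.6, 72.6 and 1204 in ctrl and at 75.1, 107 and 278 in treat, so ctrl day 7 stood above every other sample, ctrl day 1 lay below the sham range and the other LT samples within it. Free RNA could account for 16.7% of it in ctrl day 7 and 61.2% in treat day 7. None of the 5 passed without ctrl day 7 and 2 passed without ctrl day 1 or with free RNA subtracted. In T-like cells 2 of 5 genes passed by edgeR's quasi-likelihood test (1.39% of all genes passed), RT1-Da with 0.29 and Cd74 with 0.24 per day. RT1-Da in T-like cells was at 201, 117 and 100.2 CPM in sham, at 87.8, 69.0 and 262 in ctrl and at 86.7, 56.1 and 240.4 in treat, and free RNA could account for 92.2% of it in ctrl day 7 and 106% in treat day 7. None passed with free RNA subtracted, or without ctrl day 7, treat day 3 or treat day 7, and 1 passed without treat day 1.

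**Figure D4:**
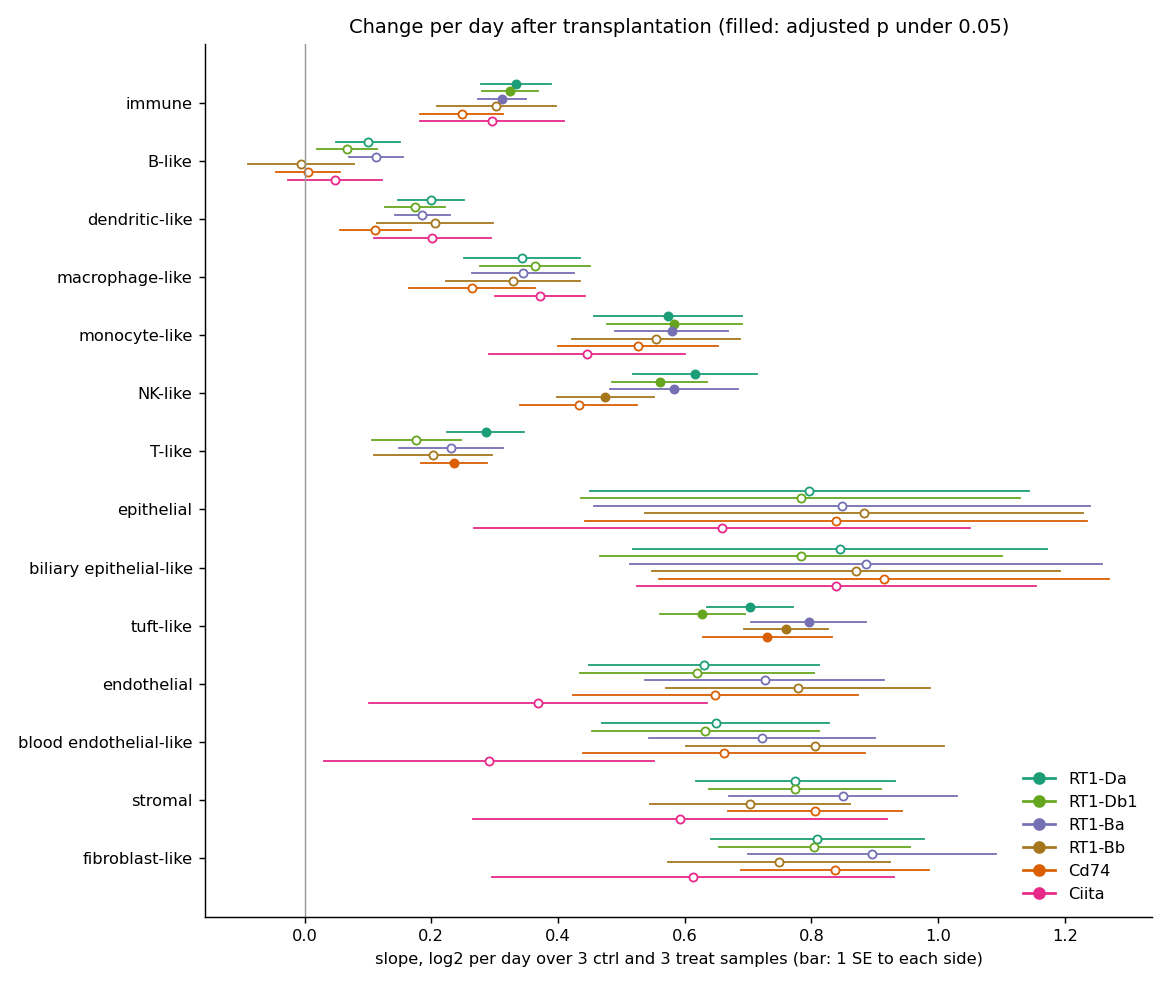
Slope of 6 MHC class II genes in log2 units per day over 3 ctrl and 3 treat samples, in the 4 compartments and in cell classes, with bars of 1 SE to each side and filled points where the adjusted p of edgeR's quasi-likelihood test was under 0.05. B-like cells lie around 0, immune cells near 0.3, and epithelial, tuft-like and stromal cells between about 0.59 and 0.88.

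The compartments were then compared directly, with the sample as a block. For the slope over days, 3 of 7 genes were steeper in epithelial than in immune cells, where 6.49% of all genes differed by edgeR's quasi-likelihood test. The difference in slope was 0.81 log2 units per day for RT1-Ba (SE 0.23, adjusted p = 0.046), 0.84 for RT1-Bb (SE 0.23, adjusted p = 0.042) and 0.83 for Cd74 (SE 0.22, adjusted p = 0.038). These differences are larger than those between the slopes fitted in each compartment alone, which were 0.85, 0.88 and 0.84 in epithelium and 0.31, 0.30 and 0.25 in immune cells, and the cause was not tested. In stromal cells 1 of 7 was steeper, Cd74 by 0.61 (SE 0.19, adjusted p = 0.047; 10.8% of all genes), and in endothelial cells 0 of 7 (1.4% of all genes), with 5 at an unadjusted p under 0.05 and 2 called by DESeq2. No difference of the epithelial slopes was called when ctrl day 1, ctrl day 7, treat day 1 or treat day 7 was left out, when free RNA was subtracted or when the hemoglobin limit was lifted, whereas 5 and 6 were called without ctrl day 3 and without treat day 3. The stromal call was lost under the first 4 of these omissions and when the hemoglobin limit was lifted. It was also lost when doublets were kept and without ctrl day 3 libraries 2 and 3. For stroma, 3 and 4 genes were called without ctrl day 3 and without treat day 3.

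For ctrl against sham the difference between epithelial and immune cells was 3.98 to 4.74 log2 units in all 6 genes. It was called by edgeR's quasi-likelihood test for 0 of 6 (adjusted p from 0.054 to 0.082, with 1.12% of all genes called). All 6 had an unadjusted p under 0.05 and DESeq2 called 5. Without ctrl day 1, RT1-Da, RT1-Db1, RT1-Ba, RT1-Bb and Cd74 were called. Ciita was called there too, but it had a UMI in 1, 3 and 5 epithelial cells in sham and in 56 and 364 in ctrl at days 3 and 7. Its difference thus rested on the samples where it was high, and it is not counted. The differences of endothelial from immune cells (1.55 to 2.17; 0.74% of all genes) and of stromal from immune cells (1.78 to 2.45; 1.18% of all genes) were called for 0 of 6 genes, with 0 at an unadjusted p under 0.05 and 0 called by DESeq2. Without ctrl day 1, 1 gene was called for the stromal difference.

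Raised arterial flow was tested by comparing treat with ctrl at matched days. Epithelial levels went both ways: Cd74 was higher in treat at day 3, 2559 against 1233 CPM, and lower at day 7, 3664 against 5133 CPM. The log2 fold changes over the 3 days were -0.15 to 0.27, and 0 of 6 genes passed edgeR's quasi-likelihood test (0% of all genes passed), with 0 at an unadjusted p under 0.05 and 0 called by DESeq2. In immune cells 0 of 7 passed edgeR's quasi-likelihood test (0.0148% of all genes), with fold changes of -1.06 to 0.43, 0 at an unadjusted p under 0.05 and 0 called by DESeq2. Endothelial fold changes were all above 0, from 0.75 to 2.40, and stromal ones from 0.62 to 1.78. Cd74 in endothelium changed by 1.20 (SE 0.83, adjusted p = 0.62 by edgeR's quasi-likelihood test) and Ciita by 2.40 (SE 0.53, adjusted p = 0.29), with 0 of 6 called (0.0181% of all genes), 1 at an unadjusted p under 0.05 and 0 called by DESeq2. The gene at an unadjusted p under 0.05 was Ciita. It had a UMI in 0, 3 and 5 endothelial cells of ctrl and in 0, 33 and 39 of treat at days 1, 3 and 7. In that fit Ciita rested on the treat samples where it was high, and it is not counted. Cd74 in stroma changed by 0.83 (SE 0.55, adjusted p = 0.64 by edgeR's quasi-likelihood test), with 0 of 6 called (0% of all genes), 0 at an unadjusted p under 0.05 and 0 called by DESeq2. In 12 classes fitted for this comparison, edgeR's quasi-likelihood test called no class II gene, with 0 to 4 genes per class at an unadjusted p under 0.05, and DESeq2 was not run. The share of all genes that passed was 0% in 7 of the 12 classes, 0.09% in tuft-like, 0.0769% in neutrophil-like, 0.0466% in NK-like, 0.0348% in fibroblast-like and 0.00935% in blood endothelial-like cells. In tuft-like cells all 5 genes tested had fold changes below 0, from -0.84 to -0.09, and 4 of them were at an unadjusted p under 0.05. At matched days no direction held in all cells, and a difference between cell types was not tested: RT1-Da and Cd74 were higher in treat at all 3 days in immune cells and lower at all 3 days in tuft-like cells, whereas endothelial Cd74 was lower in treat at day 1 and higher at days 3 and 7.

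The genes did not keep the same proportions in all cells. In epithelium at days 3 and 7 there were 2.42 and 2.68 UMIs of Cd74 per UMI of RT1-Da in ctrl and 3.07 and 2.89 in treat, whereas the immune compartment had 1.13 and 0.944 in ctrl and 1.38 and 1.05 in treat. RT1-Ba per RT1-Da was 0.575 and 0.591 in ctrl epithelium and 0.532 and 0.595 in treat epithelium, against 0.286 and 0.268 in ctrl immune cells and 0.233 and 0.289 in treat. The ranges of epithelium and immune cells at these days did not overlap for either ratio. A high Cd74 ratio was not particular to epithelium. In endothelium at days 3 and 7 it was 2.30 and 1.73 in ctrl and 3.05 and 2.40 in treat. In plasma-like cells it was 2.81 at ctrl day 7 and 2.27 at treat day 7. These ratios are descriptions, and RT1-Db1 per RT1-Da stayed between 0.522 and 1.15 over the 4 compartments and all samples.

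The RT1-Bb to RT1-Ba ratio varied by library. In B-like cells it was 0.354, 0.909 and 0.106 in ctrl day 7 libraries 1, 2 and 3, and 0.835 and 0.225 in treat day 3 libraries 2 and 3. It was 0.580 and 0.799 in the sham samples with enough B-like cells and 1.04, 1.01 and 0.706 in those of treat day 7. In ctrl day 7 library 3 the ratio was also the lowest of all libraries in macrophage-like cells at 0.170, in dendritic-like cells at 0.116 and in monocyte-like cells at 0.111. The ratio therefore moved with the library across 4 cell classes. Its cause was not tested, and levels of RT1-Bb in ctrl day 7 and treat day 3 rest on it.

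**Figure D5:**
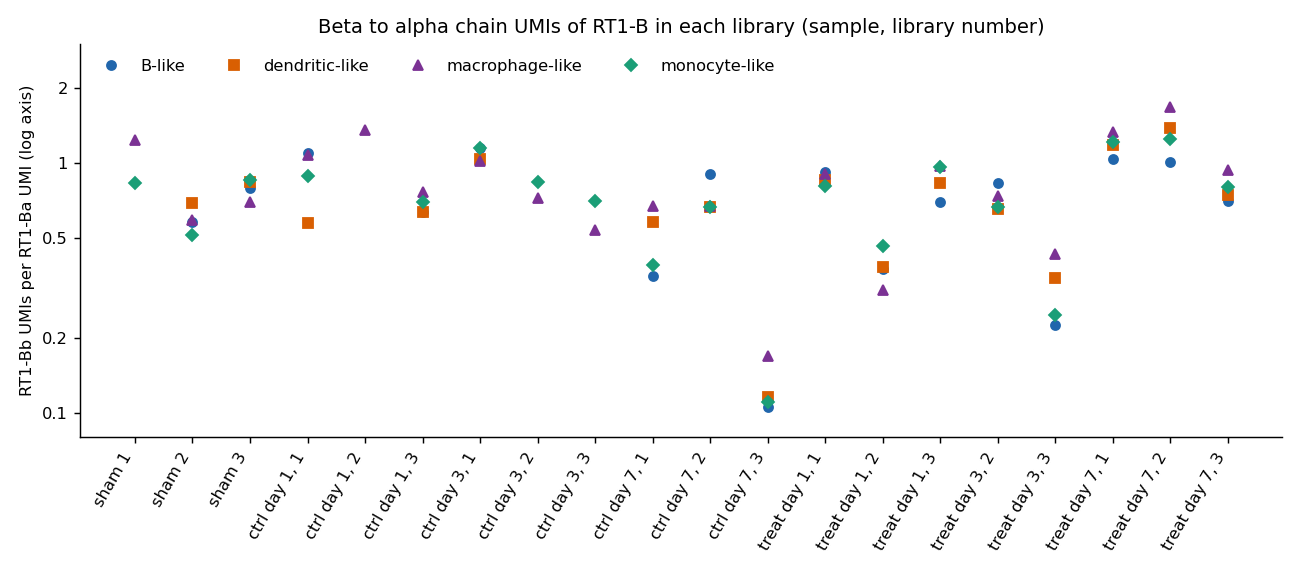
UMIs of RT1-Bb per UMI of RT1-Ba (log axis) in each library, for 4 immune classes with enough UMIs. Ctrl day 7 library 3 lies between 0.106 and 0.170 in all 4 classes, the lowest of all libraries.

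The other genes of the pathway were read from 4 lists. The list of proteases and loading factors held 10 genes, and all 10 were higher in immune than in epithelial cells, with a median log2 difference of 2.28 beside 5.14 to 5.54 for the 4 chains. Ctss, the protease that cleaves the invariant chain, was higher by 6.06 (SE 0.38), RT1-DOb, a chain of the DM inhibitor DO, by 5.75 (SE 0.35), its partner RT1-DOa by 1.72 (SE 0.26) and the protease gene Ctsz by 4.07 (SE 0.13), all with adjusted p under 0.05 by edgeR's quasi-likelihood test. Against endothelial and stromal cells 9 of the 10 were higher in immune cells. Of all genes 73.2%, 62.7% and 72.2% passed in these 3 contrasts. For the slope over days in immune cells, RT1-DOa (0.40, SE 0.05) and RT1-DOb (0.43, SE 0.08) rose and the other 8 were not called (5.48% of all genes passed), with a list median of -0.098. For ctrl against sham, Ctsz passed in epithelium (0.95, SE 0.17, adjusted p = 0.0499 by edgeR's quasi-likelihood test) and the protease gene Lgmn in endothelium (1.64, SE 0.25, adjusted p = 0.022), and no other of these genes passed in a compartment. The slope was steeper than in immune cells for Ctss in epithelium, by 0.55 (SE 0.11), and in stroma, by 0.38 (SE 0.11), and in stroma also for the protease genes Ctsl by 0.44 (SE 0.10), Ctsd by 0.41 (SE 0.10) and Lgmn by 0.28 (SE 0.09), with adjusted p between 0.015 and 0.047 by edgeR's quasi-likelihood test (6.49% of all genes passed for epithelium and 10.8% for stroma).

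The enhanceosome list, 7 genes for the RFX, NF-Y and CREB factors that hold CIITA at the promoter, differed in both directions between compartments. Of 6 tested, 2 were higher and 1 lower in immune than in epithelial cells, with a median of 0.14, and Creb1 differed most at 1.64 (SE 0.14). Against endothelial cells and against stromal cells 3 were higher and 1 lower each time. Of all genes 73.2%, 62.7% and 72.2% passed in these 3 contrasts. Rfx5 was lower in immune than in stromal cells by a log2 difference of -0.69 (SE 0.14). It was the only one of the 6 with a slope that passed in immune cells (5.48% of all genes), and Rfxank the only one whose slope differed between epithelial and immune cells (0.13, SE 0.04, adjusted p = 0.046 by edgeR's quasi-likelihood test). The slope of Rfx5 was 0.19 per day (SE 0.04, adjusted p = 0.044 by edgeR's quasi-likelihood test). No gene of this list passed in ctrl against sham, treat against sham or treat against ctrl in any compartment, while the class II genes had log2 fold changes of up to 5.34 in epithelium, which did not pass either.

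The list from interferon gamma to Ciita held 9 genes. Ifng itself was higher in immune than in epithelial cells by 6.66 log2 units (SE 0.46), the receptor chain gene Ifngr1 by 1.37 (SE 0.15), the kinase gene Jak2 by 2.01 (SE 0.25) and the transcription factor gene Irf8 by 2.36 (SE 0.28), and 6 of 9 passed in all, a share below the 73.2% of all genes that passed in this contrast. None passed in any compartment for ctrl against sham, treat against sham, treat against ctrl or the slope over days. The difference in slope between epithelial and immune cells passed for Ifngr2 at 0.22 per day (SE 0.06, adjusted p = 0.047 by edgeR's quasi-likelihood test), as did that between stromal and immune cells at 0.25 (SE 0.07, adjusted p = 0.029), and the difference in fold change of ctrl against sham passed for Irf1, lower in endothelial than in immune cells by -2.21 (SE 0.45, adjusted p = 0.034), and for Jak2, higher in stromal cells by 1.86 (SE 0.34, adjusted p = 0.018). Of all genes 6.49% and 10.8% passed for the slope differences and 0.74% and 1.18% for the differences in fold change.

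The list of costimulation and turnover held 7 genes. The costimulatory gene Cd86 was higher in immune than in epithelial cells by 2.34 (SE 0.31), Cd40 by 6.11 (SE 0.41), the ligand gene Pdcd1lg2 by 6.47 (SE 0.43) and the ubiquitin ligase gene Marchf1 by 7.10 (SE 0.49), and 1 of the 7, the related ligase gene Marchf8, was lower by a log2 difference of -2.47 (SE 0.12), in a contrast where 73.2% of all genes passed. Epithelium differed from endothelium in both directions, with Cd86 higher by 4.08 (SE 0.46) and Cd40 at -5.79 (SE 0.41; 62.7% of all genes passed). No gene of the list passed for ctrl against sham, treat against sham, treat against ctrl or the slope over days in any compartment, and the slope differed from that of immune cells for Pdcd1lg2 in epithelium by 0.39 per day (SE 0.10, adjusted p = 0.032 by edgeR's quasi-likelihood test) and in stroma by 0.42 (SE 0.11, adjusted p = 0.030), and for Marchf1 in stroma by 1.09 (SE 0.27, adjusted p = 0.026). Of all genes 6.49% passed for this difference in epithelium and 10.8% in stroma. The lists were chosen with earlier results of these data known.

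Across 124 sums of 17 cell classes and 9 samples, the genes whose log2 CPM was most like the mean of the 8 genes were Ly86 (Pearson r 0.888), Cd83 (0.842), Fgd2 (0.836), Ifi30 (0.817), Cybb (0.812), Cd86 (0.799), Wdfy4 (0.793), Fcrla (0.774), Ctss (0.767) and Irf5 (0.740), out of 7522 genes. The sums share libraries and depth, so r is a description. Ly86, Wdfy4 and Fcrla are also among the markers that named classes, and Ifi30, Ctss and Cd86 are in the pathway lists.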

How the data were processed

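Single-cell RNA sequencing (10x 3′) was measured in 9 bile duct samples, 20 libraries. The authors deposited raw UMI counts per gene and barcode from Cell Ranger (5.0.1 in the submitters' processing notes, which also name Seurat 3.2.0; the matrix headers name an earlier major version); the genome build is not given in the sources used here. Only uniquely assigned reads enter such counts, so reads shared between related RT1 genes were not resolved. The treat day 3 library numbered 1 was not analysed here.

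Barcodes with over 400 and at most 6000 genes, at most 25% mitochondrial and under 3% hemoglobin UMIs were kept, and those above the 92.5th percentile of a simulated-doublet score in each library were removed. Cells were clustered on 2000 variable genes (Leiden algorithm in igraph, resolution 0.9), from which the 8 genes and the pathway lists were excluded, and clusters were named from marker lists. Counts were summed per sample and compartment or class (at least 20 cells), and tested with edgeR 4.0.16 (R 4.3.3; TMM, quasi-likelihood test, Benjamini-Hochberg over all genes of a fit, threshold 0.05). Comparisons were ctrl and treat against sham, treat against ctrl with day as a factor, the slope over days 1, 3 and 7, and compartments with sample as a block; the first 3 share samples. The edgeR script was tested on simulated data. DESeq2 1.42.0 was an alternative. The genes and lists were chosen with earlier results of these data known. Named genes were the 8 genes, of each pathway list at most the 4 genes that passed in a compartment comparison with the largest absolute log2 fold change, and the 10 genes most like the mean log2(CPM + 1) of the 8 over class sums; Marchf8 and the list genes whose slope or fold change differed between compartments were added after their values were seen.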

Additional observations from a re-analysis of the deposited data

Results flagged for a closer look

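Slopes over days that differed between compartments by edgeR's quasi-likelihood test, with the sample as a block, are listed here. Between epithelial and immune cells the slope differed by 0.806 log2 units per day for RT1-Ba, 0.843 for RT1-Bb and 0.833 for Cd74, and between stromal and immune cells by 0.613 for Cd74, higher outside the immune compartment each time. All 4 rest on 6 samples, and none of the 4 passed without the hemoglobin limit. No group of samples had 4 members, so single samples were not tested for standing apart.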

How the results depend on the processing

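Counts of class II genes called were recomputed for 36 results. Of 427 alternatives other than leaving out a sample, 364 stayed within 1.5 times and 63 moved, and no named fold change that passed a test turned its direction. The pairing of treat and ctrl samples rests on the day in the labels; without the replicate block the number called for treat against ctrl was 0 in all cells and in each compartment.

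By DESeq2 the numbers called were 1 in all cells, 1 in immune and 5 in epithelial cells for ctrl against sham, 1 in all cells and 3 in epithelium for treat against sham, 5 in all cells, 6 in immune, 3 in epithelial, 5 in stromal and 6 in monocyte-like cells for the day slope, 3 for epithelium against endothelium, 1 for endothelium against stroma, 5 for the ctrl against sham difference of epithelium from immune cells, and 6, 2 and 5 for the slope differences of epithelium, endothelium and stroma. Without a filter on low counts they were 1 in endothelium for ctrl against sham, 1 in endothelium for treat against ctrl, 3 in endothelium, 2 in stroma, 5 in T-like and 7 in monocyte-like cells for the slope, 2 for the ctrl against sham difference of epithelium and 2 for the slope difference of stroma. When libraries were not summed, the slope was called for 7 in all cells, 6 in immune, 6 in epithelial, 5 in endothelial, 5 in stromal, 0 in T-like and 6 in monocyte-like cells, its differences for 6, 5 and 5, epithelium against endothelium for 4 and endothelium against stroma for 2. With day as its rank the slope was called for 3 in all cells, 1 in epithelium, 5 in stroma, 0 in T-like and 7 in monocyte-like cells. Scaling by library size alone gave 5 in monocyte-like cells, 2 for endothelium against stroma, 1 for the ctrl against sham difference of epithelium and 2 for the slope difference of stroma. Keeping doublets gave 2 for epithelium against endothelium and 0 for the slope difference of stroma. Lifting the hemoglobin limit gave 0 for the slope differences of epithelium and stroma. Over 800 genes per cell gave 0 in T-like cells, and Leiden resolution 2 gave 0 in T-like cells and 2 for the slope difference of stroma. Subtracting free RNA gave 0 in T-like and 2 in NK-like cells, 0 for epithelium against endothelium, and 0 and 2 for the slope differences of epithelium and stroma; it could not be done for all cells. Chosen after seeing the data, leaving out ctrl day 7 library 2 gave 5 in monocyte-like cells, 0 for epithelium against endothelium and 3 for the slope difference of stroma, leaving out ctrl day 1 library 2 gave 2 for the ctrl against sham difference of epithelium and 2 for the slope difference of stroma, and leaving out ctrl day 3 libraries 2 and 3 gave 0 for the latter. The cause of these changes was not tested.

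With each sample left out in turn, the numbers called ran from 0 to 3 in all cells and 0 to 5 in epithelium for ctrl against sham, from 0 to 5 in all cells, 0 to 6 in epithelium, 0 to 6 in endothelium and 0 to 3 in stroma for treat against sham, and from 0 to 4 in immune, 0 to 2 in epithelial, 0 to 5 in endothelial, 0 to 6 in stromal, 4 to 5 in tuft-like, 0 to 2 in T-like, 0 to 5 in NK-like and 0 to 7 in monocyte-like cells for the slope. They ran from 6 to 7 for immune cells against each other compartment, 0 to 3 for epithelium against endothelium, 4 to 6 for epithelium against stroma and 0 to 1 for endothelium against stroma. They ran from 0 to 6 and 0 to 1 for the ctrl against sham differences of epithelium and stroma, and from 0 to 6, 0 to 2 and 0 to 4 for the slope differences of epithelium, endothelium and stroma. All other ranges were 0 to 0. The maxima of 6 in epithelium and endothelium for treat against sham, of 6 in stroma for the slope, and of 6 for the ctrl against sham difference of epithelium include Ciita, which is not counted above. Each arm held 1 sample per day, so the spread between rats at a day was not measured, and Ciita in endothelium and stroma and in the epithelium of sham and day 1, and the RT1-DM chains everywhere, rest on few UMIs, for which the cause was not tested.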
